A study of Rattus norvegicus with 26 samples.

Results

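The highest TCDD dose of the series, 316 nM, was set against 1 and 10 nM in primary rat hepatocytes, which asked whether the transcript response stays level, declines or takes in further genes once the aryl hydrocarbon receptor is past saturation. The comparison took 5 of the 26 arrays, chosen by chemical and dose in the sample titles: 316 nM in pool 1 and pool 2 (2 arrays), and 10 nM in both pools with 1 nM in pool 2 (3 arrays). Hepatocytes came from the livers of female Sprague Dawley rats (Crl:CD(SD)IGS BR), divided into 2 pools of 3 animals each, and were exposed in culture for 48 hours. TCDD is 2,3,7,8-tetrachlorodibenzo-p-dioxin, and vehicle cultures received 0.5% DMSO. Other arrays used here were the 2 vehicle arrays, TCDD at 0.01 pM, 1 pM and 0.1 nM in both pools and at 10 pM in pool 2, and PCB 126, a coplanar biphenyl that binds the same receptor, from 1 pM to 10000 nM. Each pool is 1 biological unit and gave 1 array per dose, so the number of arrays limits the precision, and p-values measure the spread between arrays.

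The aryl hydrocarbon receptor (AhR) waits in the cytoplasm in a complex with the chaperone Hsp90. A bound ligand sends it to the nucleus, where it pairs with Arnt and binds xenobiotic response elements near target genes. In liver it is best known for inducing the Cyp1 family of cytochrome P450 enzymes together with Nqo1, Aldh3a1 and other detoxifying enzymes. Cultured hepatocytes also lose liver-specific transcripts and gain cytoskeletal ones over days.

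The answer turns on induced targets and on genes that TCDD lowered, so the 250 bases before the start site are printed for some. The genes are Cyp1b1 and Nqo1, 2 targets that hold the core of the receptor's element there, and Acta1. The Acta1 probe set had the largest upward 316 nM step in pool 2. Sequences are from RefSeq (build GRCr8), 5′ to 3′ in the direction of the gene. Capitals in Cyp1b1 (chr6:21094315-21094564, plus strand) and Nqo1 (chr19:52220268-52220517, minus strand) mark the core of the xenobiotic response element, GCGTG on either strand, and capitals in Acta1 (chr19:68784195-68784444, minus strand) mark a CArG box, the element bound by serum response factor. Acta1 and its motif were chosen after its values were seen.
Cyp1b1: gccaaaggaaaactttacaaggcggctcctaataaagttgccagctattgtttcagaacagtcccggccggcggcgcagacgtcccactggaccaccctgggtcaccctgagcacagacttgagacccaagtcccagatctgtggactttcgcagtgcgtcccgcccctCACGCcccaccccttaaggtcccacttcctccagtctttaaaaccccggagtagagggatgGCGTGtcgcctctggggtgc
Nqo1: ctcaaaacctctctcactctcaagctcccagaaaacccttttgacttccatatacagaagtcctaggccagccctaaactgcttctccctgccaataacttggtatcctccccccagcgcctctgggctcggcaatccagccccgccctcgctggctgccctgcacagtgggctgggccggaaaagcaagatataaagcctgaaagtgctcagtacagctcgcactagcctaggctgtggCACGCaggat
Acta1: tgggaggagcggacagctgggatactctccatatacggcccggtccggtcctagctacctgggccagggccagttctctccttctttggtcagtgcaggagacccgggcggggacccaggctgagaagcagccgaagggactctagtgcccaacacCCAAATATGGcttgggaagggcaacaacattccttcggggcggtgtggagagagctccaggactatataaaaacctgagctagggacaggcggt
The Cyp1b1 window held 2 cores, at -81 and -20 from the start site, and the Nqo1 window 1, at -10. The Acta1 box began at -94. Of the other battery windows in the table, Ugdh held 1 core, at -207, and Cyp1a2 and Nfe2l2 held none. Of 33469 rat promoter windows of this length, 25.9% held the core and 1.5% a CArG box. Among the 2543 measured genes with a window the shares were 42% and 1.45%, so a core alone is common. These matches describe letters and not binding.

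No probe set was called higher or lower at 316 nM than at 1 to 10 nM. By limma with the pool as a block, 0 of 5197 probe sets (0%) passed a Benjamini-Hochberg adjusted p of 0.05, and the smallest unadjusted p was 0.000298. At an unadjusted p below 0.05, 60 probe sets were higher at 316 nM (1.15%) and 145 were lower (2.79%). There was thus no called probe set to sort into continued, reversed or late responses. The 95% interval of the difference lay within 1 log2 (a 2-fold change) on either side of 0 for 4396 probe sets (84.6%), and its median half-width was 0.43 log2. Smaller differences were not resolved by these arrays.

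The sign of the 316 nM step matched between the pools at 2677 of 5197 probe sets (51.5%). A test of the difference between the pools called 1 probe set, with 220 at an unadjusted p below 0.05. In pool 1, 92 probe sets were more than 1 log2 higher at 316 than at 10 nM (1.77%) and 310 were as far below (5.96%). In pool 2, set against the mean of 1 and 10 nM, 15 were higher by that much (0.289%) and 21 lower (0.404%). Differences between the 316 and 10 nM arrays had an SD over probe sets of 0.51 log2 in pool 1 and 0.29 in pool 2, where 1 and 10 nM differed with an SD of 0.24. The BioB spike-in signal of the 316 nM array of pool 1 was 9.95 log2, against 8.30 at 10 nM in that pool, while in pool 2 it was 6.23 against 6.02 and 6.19. Reverse-strand controls averaged 3.85 log2 on that 316 nM array and 3.05 on the 10 nM array of its pool, against 2.54 and 2.49 to 2.54 in pool 2. The actin 3′ minus 5′ difference, a measure of RNA integrity, was 0.72 and 0.89 log2 in pool 1, and 1.39 against 1.36 and 1.60 in pool 2. The part of these array measures in the results was not tested.

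Of the AhR battery, the 5 members that rose at lower doses (Cyp1a1, Cyp1a2, Cyp1b1, Aldh3a1 and Nqo1) stayed well above vehicle at 316 nM in both pools, while Ugdh and Nfe2l2 had not passed the test of induction. All 7 of its 11 listed members that were measured had estimates below 0 at 316 nM, as had 1912 of the 3034 genes tested. The median of the 7 was -0.31 log2, against -0.05 over all genes. None of the 7 passed the test. The median step was 0.00 in pool 1 and -0.66 in pool 2. Ugt1a6, Gsta2, Tiparp and Ahrr were not analysed here.

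Cyp1a1, the classic sentinel gene of receptor activation, read 12.77 log2 at 316 nM and 12.53 at 10 nM in pool 1. In pool 2 it read 11.69 at 316 nM, 12.37 at 10 nM and 12.39 at 1 nM. The groups overlap, since the pool 1 array at 316 nM is the highest of the 5 and the pool 2 array the lowest. Vehicle cultures were at 3.45 and 3.28, so both 316 nM arrays kept more than 8 log2 of induction. The difference was -0.10 ± 1.52 log2 (limma SE, 95% interval -3.43 to 3.24). Much of that width came from 1 PCB 126 array that stood apart, the 1 pM array of pool 2, through the spread that all 26 arrays share. Without it the difference was -0.21 ± 0.49, with an interval from -1.26 to 0.83.

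Cyp1a2, the constitutive liver member of the family, read 10.68 log2 at 316 nM and 9.72 at 10 nM in pool 1. In pool 2 the 316 nM array was at 10.28, below 11.20 at 10 nM and 11.25 at 1 nM. The pools thus moved in opposite directions, by 0.96 and -0.94. Cyp1b1, which metabolises estradiol and polycyclic hydrocarbons, read 10.93 at both doses in pool 1. In pool 2 it was 10.43 at 316 nM, 11.35 at 10 nM and 10.82 at 1 nM, so only the pool 2 array lies below the other 4. Without that PCB 126 array the intervals ran from -1.18 to 0.77 log2 for Cyp1a2 and from -1.18 to 0.40 for Cyp1b1.

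Nqo1, the quinone reductase, was lower in both pools. Its values were 10.29 at 316 nM and 10.89 at 10 nM in pool 1, and 9.86 at 316 nM against 10.49 and 10.71 in pool 2. Both 316 nM arrays lie below all 3 others, and the difference was -0.55 ± 0.40 log2 (unadjusted p = 0.184 by limma). Vehicle arrays were at 7.05 and 7.70. A second Nqo1 probe set, which was not among the early risers, moved by 0.31 log2 in pool 1 and -1.45 in pool 2. Aldh3a1, an aldehyde dehydrogenase, went from 7.66 to 8.09 in pool 1 and from 8.35 at 10 nM to 7.82 in pool 2. Ugdh, which makes UDP-glucuronic acid, was at 6.48 against 7.53 in pool 1 and at 8.32 against 8.17 and 8.55 in pool 2. Its vehicle arrays were at 6.46 and 7.63, so the pool 1 array at 316 nM was at the vehicle level. Nfe2l2, the NRF2 transcription factor, was at 9.23 against 9.33 in pool 1 and at 9.27 against 9.84 and 9.68 in pool 2. Both Nfe2l2 values at 316 nM lie below the other 3, with a difference of -0.33 ± 0.25.

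**Figure D1:**
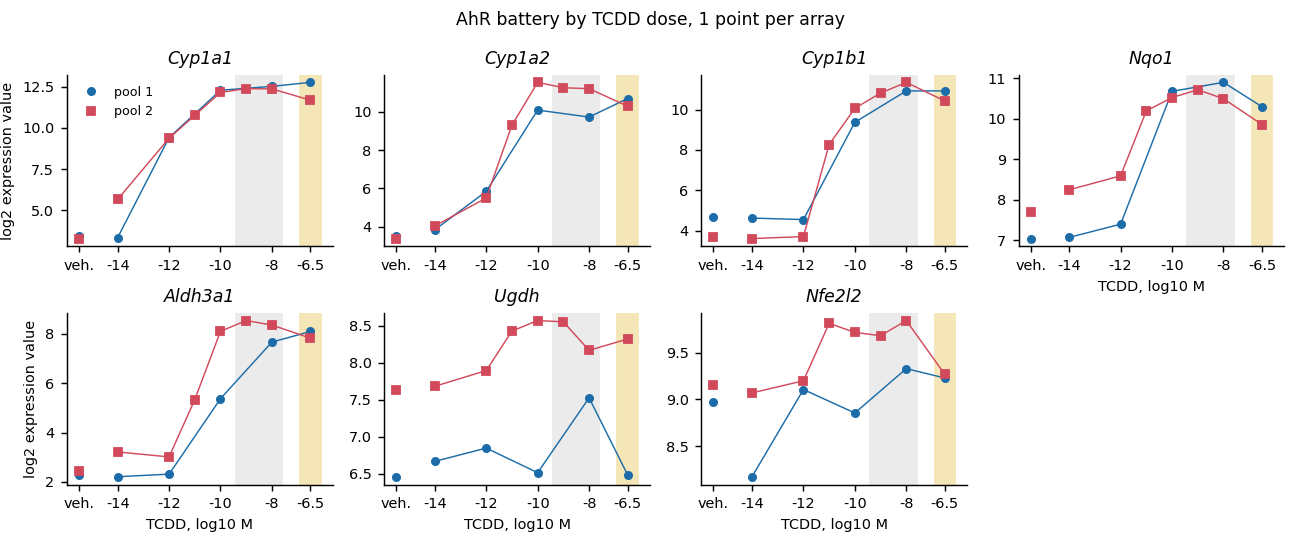
Log2 expression of the 7 measured AhR battery genes by TCDD dose (log10 M, vehicle at the left), 1 point per array, circles for pool 1 and squares for pool 2. The grey band covers 1 and 10 nM and the yellow band 316 nM; Cyp1a1 reads 12.77 and 11.69 in the yellow band against 12.37 to 12.53 in the grey one.

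To describe the response beyond the battery, TCDD-responsive probe sets were taken from arrays outside the comparison: 10 pM and 0.1 nM against vehicle and 0.01 pM. Of the 5197 probe sets, 58 rose there (1.12%) and 108 fell (2.08%), by adjusted p in the same limma fit; these are called early risers and early fallers. Without the 0.1 nM array of pool 2 the total of 166 became 532. The 0.1 nM array of pool 1 read 10.27 log2 for BioB and 3.92 for reverse-strand controls. The vehicle array of that pool read 8.99 and 3.42. The 10 pM array had an actin 3′ minus 5′ difference of 2.19 log2, against 1.67 with vehicle in pool 2. The part of these measures in the choice was not tested. The median difference of the fallers from 0.1 to 10 nM was 0.70 log2 in pool 1 and 0.12 in pool 2. With 1 and 10 nM against the same low arrays, 111 rose (2.14%) and 93 fell (1.79%). The early fallers had a median of -0.55 log2 there, against -1.01 in the contrast that chose them. The contrast of 1 and 10 nM shares arrays with the 316 nM step, and its values are only set beside it.

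The 58 risers kept most of their induction at 316 nM. Their median was 1.78 log2 over vehicle in pool 1 and 1.35 in pool 2, against 1.93 and 1.78 at 10 nM. Above vehicle were 51 of them in pool 1 and 55 in pool 2, against 1816 and 2233 of all 5197 probe sets. The vehicle arrays were on the low side when the risers were chosen, so values over vehicle are not independent of that choice. The risers' median difference from 1 to 10 nM was -0.29 log2 (quartiles -0.45 and -0.06), with 50 below 0. All 5197 probe sets had a median of -0.03, with 3067 below 0. None of the risers passed the adjusted test. At an unadjusted p below 0.05, 7 (12.1%) were lower and 0 higher, against 2.79% and 1.15% over all. In pool 1 the median step was 0.00, with 29 up and 29 down. In pool 2 it was -0.54, with 54 of 58 below 0, against 2396 of all 5197. The median estimate was 0.03 without the 316 nM array of pool 2 and -0.57 without that of pool 1, so the lower values rest on 1 array. It was -0.05 for responders chosen without the 0.1 nM array of pool 2.

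The 108 fallers were below vehicle in 92 cases in each pool, with the vehicle arrays part of their choice. Of all 5197 probe sets, 3381 were below it in pool 1 and 2964 in pool 2. The fallers' median estimate was 0.04 log2, with 61 above 0, against 2130 of all 5197. At an unadjusted p below 0.05, 6 (5.56%) were higher and 3 (2.78%) lower, against 1.15% and 2.79% over all. The median step was -0.20 in pool 1 (75 below 0, against 3188 of all) and 0.18 in pool 2. There 77 fallers were above 0, against 2801 of all, and 9 by more than 1 log2, against 15 of all. Without the 316 nM array of pool 2 the median was -0.10.

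A second choice of responders was made after the data had been seen. It set PCB 126 at 1, 10, 1000 and 10000 nM against vehicle and PCB 126 at 1 pM. The vehicle arrays thus served both choices, and the low side held the 1 pM array of pool 2 that stood apart. It gave 98 risers and 137 fallers, of which 49 and 53 were in the lists above. Their TCDD steps were -0.00 in pool 1 and -0.50 in pool 2 for risers, and -0.13 and 0.40 for fallers.

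**Figure D2:**
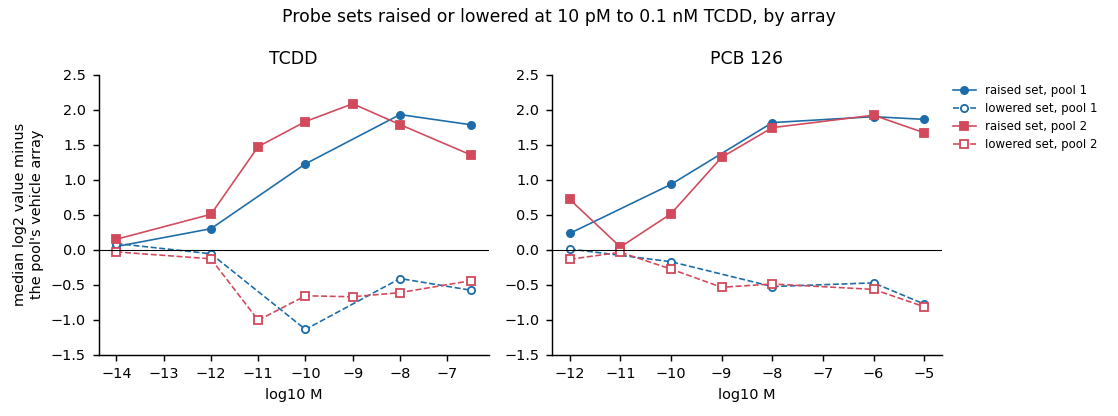
Median log2 value minus the pool's vehicle array, by dose (log10 M), for the 58 probe sets raised (filled, solid lines) and the 108 lowered (open, dashed lines) at 10 pM to 0.1 nM TCDD; circles are pool 1 and squares pool 2. At the highest TCDD dose the raised set stands at 1.78 in pool 1 and 1.35 in pool 2; the TCDD arrays at 10 pM and 0.1 nM chose the sets.

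Outside the Cyp1 family, Cyp2a1, a steroid-hydroxylating P450, showed the pattern of Cyp1a1. It read 9.56 log2 at 316 nM and 9.19 at 10 nM in pool 1, and 8.52 at 316 nM against 9.03 and 9.49 in pool 2. The 316 nM arrays are thus the highest and the lowest of the 5. Cyp3a23-3a1, a P450 of the pregnane X receptor pathway, was lower in both pools, at 7.30 against 8.24 and at 8.03 against 8.82 and 9.08. Its difference was -0.92 ± 0.56 (unadjusted p = 0.123), and its second probe set moved by 0.20 in pool 1 and -1.13 in pool 2. Pon1, the serum paraoxonase, was at 10.61 against 10.70 in pool 1 and at 9.91 against 10.63 and 11.02 in pool 2.

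Sod2, the mitochondrial superoxide dismutase, was lower in both pools. It read 8.80 log2 at 316 nM and 9.34 at 10 nM in pool 1, and 7.23 against 8.43 and 8.64 in pool 2. The difference was -0.89 ± 0.31 (unadjusted p = 0.0115, adjusted p = 1, by limma), and vehicle arrays were at 7.98 and 6.88. The groups overlap only across pools, since the pool 1 array at 316 nM lies above both lower-dose arrays of pool 2. Apob, the apolipoprotein of very low density lipoprotein, had a difference of -0.47 ± 0.20 (unadjusted p = 0.0317), and its other 4 probe sets had estimates from -0.43 to 0.15.

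The chemokine Cxcl6 had the largest drop of the named risers in pool 2. It read 4.27 log2 at 316 nM there, against 6.33 at 10 nM and 5.71 at 1 nM. In pool 1 it was 8.15 against 7.75. The pool 2 minus pool 1 gap at 316 nM differed from that over the other dose groups by -3.02 ± 0.84 (unadjusted p = 0.0033, adjusted p = 0.593, by limma). Ccl2, a monocyte attractant, was at 11.29 against 10.74 in pool 1 and at 9.37 against 10.07 and 9.66 in pool 2.

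**Figure D3:**
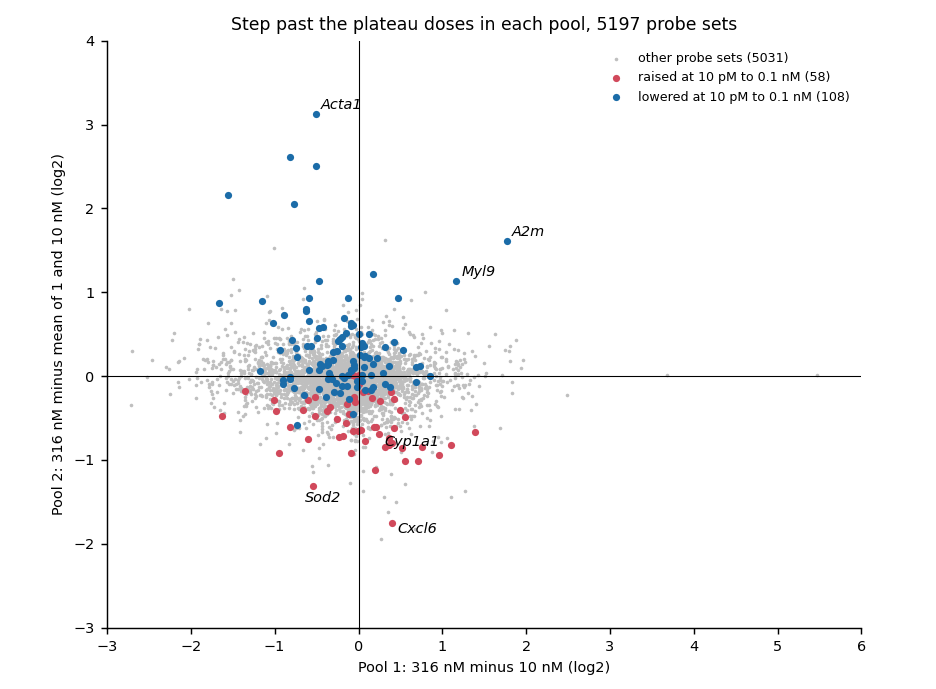
Step past the lower doses in each pool for 5197 probe sets: 316 minus 10 nM in pool 1 (horizontal, log2) and 316 nM minus the mean of 1 and 10 nM in pool 2 (vertical, log2). Red points are the 58 early risers, of which 54 lie below 0 in pool 2 and 29 in pool 1, against 2396 and 3188 of all 5197. Blue points are the 108 early fallers, with A2m and Myl9 at the upper right and Acta1 at the top.

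Among the fallers, A2m and Myl9 were nearer to vehicle at 316 nM in both pools. They were the only 2 of the 5197 probe sets more than 1 log2 higher in each pool, and 0 were as far below in both. A2m encodes alpha-2-macroglobulin, a secreted protease inhibitor and acute phase protein of the rat. It read 7.41 log2 at 316 nM and 5.65 at 10 nM in pool 1. In pool 2 it read 8.19 at 316 nM, 6.62 at 10 nM and 6.53 at 1 nM. Both 316 nM arrays lie above all 3 others, and vehicle arrays were at 7.37 and 9.06. The difference was 1.79 ± 0.38 (95% interval 0.98 to 2.61), the smallest unadjusted p of the table at 0.000298, with an adjusted p of 1. Its probe sets disagreed: 1 other, rc_AA900582_at, had an estimate of 1.11 ± 0.58 and the remaining 3 were between 0.04 and 0.10. With PCB 126, A2m was at 5.55 in pool 1 and at 7.39 and 7.19 in pool 2 with 1 to 10 nM. With 1000 and 10000 nM it was at 3.97 and 4.80 in pool 1 and at 6.73 and 6.77 in pool 2, a difference of -0.88 ± 0.32 (unadjusted p = 0.0147, adjusted p = 0.95, by limma). The doses differ, and the chemicals were not compared.

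Myl9, a regulatory light chain of smooth muscle and non-muscle myosin, read 5.25 log2 at 316 nM and 4.09 at 10 nM in pool 1. In pool 2 it read 6.04 against 4.96 and 4.84. Both 316 nM arrays are above the other 3 and below the vehicle arrays, at 6.65 and 7.51. The difference was 1.09 ± 0.32 (unadjusted p = 0.00426, adjusted p = 1), and the second probe set gave 0.35 ± 0.28.

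Acta1, skeletal muscle actin, differed in pool 2 alone. It read 9.71 log2 at 316 nM there, against 6.70 at 10 nM and 6.46 at 1 nM, with vehicle at 10.87. In pool 1 it was 6.99 against 7.50, with vehicle at 10.16. A single array is therefore high, and the pool 1 array lies among the lower doses. The difference was 1.53 ± 0.53 (unadjusted p = 0.0113) and 0.22 without the 316 nM array of pool 2. The pool 2 minus pool 1 gap at 316 nM differed from that over the other dose groups by 2.55 ± 0.55 (unadjusted p = 0.00043, adjusted p = 0.392, by limma).

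Tagln, the actin-binding protein transgelin, was at 10.14 log2 at 316 nM in pool 2 against 8.38 and 7.79, and at 8.48 against 9.25 in pool 1. Lox, which crosslinks collagen, was at 5.52 against 4.26 and 4.34 in pool 2, and at 4.97 against 4.79 in pool 1. Aopep, an aminopeptidase, was higher in both pools, at 5.64 against 5.17 and at 6.68 against 5.83 and 5.68. Its difference was 0.73 ± 0.26 (unadjusted p = 0.0145). Of these 3, Aopep and Lox were thus higher in each pool, and Tagln in pool 2 alone.

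Tagln and Myl9 are also made by contractile stromal cells. A change in the number of cells of a type and a change in RNA per cell cannot be told apart in these cultures. Of 20 stellate cell and fibroblast markers, 12 were measured. Tagln and Lox are themselves on this list, so their values enter its mean. In pool 1 the mean level was 5.47 log2 at 316 nM, 5.57 at 10 nM and 5.82 with vehicle. In pool 2 it was 5.62 at 316 nM, 5.36 at 10 nM, 5.32 at 1 nM and 5.67 with vehicle. Des, Col1a2, Pdgfrb, Thy1 and Bgn were on the array but did not pass the filter on low values. The part of these cells in the result was not tested. Hepatocyte markers, 9 of 10 measured, averaged 8.61 and 9.33 log2 at 316 nM, 8.64 to 9.25 at 1 to 10 nM and 9.35 to 9.53 with vehicle. Macrophage (6 of 20 measured), endothelial (4 of 18), cholangiocyte (7 of 15) and lymphocyte and red cell (5 of 19) markers had list medians of 0.01, 0.06, -0.01 and 0.05 log2, with no member past the test.

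**Figure D4:**
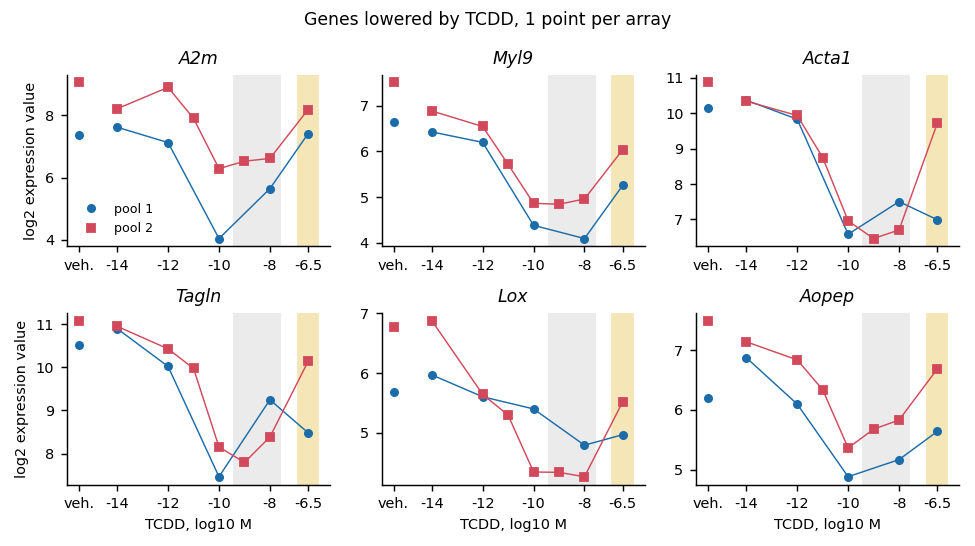
Log2 expression of 6 genes that fell at 10 pM to 0.1 nM TCDD, by dose (log10 M, vehicle at the left), 1 point per array, circles for pool 1 and squares for pool 2; grey covers 1 and 10 nM and yellow 316 nM. A2m and Myl9 are higher at 316 nM in both pools, while Acta1 is at 9.71 in pool 2 and 6.99 in pool 1.

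Of the other fallers, Cyp2c7, Rnase4 and Ankrd1 split by pool. Cyp2c7, a sex- and growth hormone-dependent liver P450, read 4.51 log2 at 316 nM and 5.40 at 10 nM in pool 1, and 7.44 against 6.87 and 6.55 in pool 2. Its difference was -0.05 ± 0.43. Rnase4, a secreted ribonuclease, was at 5.84 against 6.46 in pool 1 and at 7.11 against 6.46 and 6.16 in pool 2. Ankrd1, a stress-responsive ankyrin repeat protein, was at 6.38 against 6.97 and at 6.71 against 6.01 and 5.56. For all 3 the pool 1 array is lower than its 10 nM array and the pool 2 array is higher than both of its lower doses.

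No gene passed as a new responder past saturation. The genes named next were picked by p from all genes, those moved at lower doses included. By the naming rule the smallest unadjusted p-values with the same sign in both pools belonged, besides A2m and Myl9, to Itga7, Mfge8 and Ptpn23 on the higher side. On the lower side they belonged to Abi2, Tns3, C3, Hsph1 and Ube2g1. Itga7, an integrin subunit, read 4.49 and 3.99 log2 at 316 nM against 3.88, 3.75 and 3.72, a step of 0.43 ± 0.12 (unadjusted p = 0.00215) near the lower end of the scale. Mfge8, a secreted glycoprotein that tags dying cells, was at 9.43 and 8.83 against 8.04, 8.50 and 8.67. Both 316 nM arrays of these 2 genes lie above the other 3. Vehicle arrays were at 3.79 and 3.68 for Itga7 and at 9.03 and 9.32 for Mfge8. Abi2, an actin regulator, was at 4.04 and 4.43 against 4.64, 4.72 and 5.21, a difference of -0.58 ± 0.15 (unadjusted p = 0.0014). Tns3, a focal adhesion protein, was at 3.79 and 4.95 against 5.20, 5.43 and 5.51. Both 316 nM arrays of Abi2 and of Tns3 thus lie below the 1 to 10 nM arrays. Vehicle arrays were at 4.47 and 4.72 for Abi2 and at 4.51 and 5.54 for Tns3. All adjusted p-values were 1.

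C3, the central complement protein, read 12.54 log2 at 316 nM and 12.98 at 10 nM in pool 1, and 11.99 against 12.39 and 12.79 in pool 2. The difference was -0.54 ± 0.17 (unadjusted p = 0.00562), with the pool 1 array at 316 nM above the 10 nM array of pool 2. Vehicle arrays of this probe set were at 12.57 and 12.04, and a second C3 probe set gave -0.23 ± 0.16. C9, a pore-forming complement protein, was at 11.14 and 10.72 against 11.58, 11.12 and 11.23. Of 32 measured acute phase and complement genes, 3 were lower and 2 higher at an unadjusted p below 0.05, and the list median was -0.16. Over all 3034 genes 92 were lower and 33 higher, with a median of -0.05. A2m and Serpina1, alpha-1-antitrypsin, were the 2 higher ones.

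Heat shock genes had more members at an unadjusted p below 0.05 on one side than any other list. Of 15 measured heat shock genes, 13 had estimates below 0, 4 were lower at an unadjusted p below 0.05 and 0 were higher, with a list median of -0.23. Over all 3034 genes, 1912 had estimates below 0, 92 were lower and 33 higher. None passed the adjusted test. Hsph1, the Hsp110 chaperone, read 6.41 log2 at 316 nM and 7.39 at 10 nM in pool 1, and 7.38 against 8.07 and 8.03 in pool 2. Both 316 nM arrays are below all 3 others, and the difference was -0.79 ± 0.24 (unadjusted p = 0.00564). A second Hsph1 probe set moved by 0.42 in pool 1 and -0.49 in pool 2. Hsp90ab1, the Hsp90 that holds the unliganded receptor, was at 12.39 and 12.91 against 12.93, 13.27 and 13.07, a difference of -0.39 ± 0.15. Hspa9, the mitochondrial Hsp70, read 5.97 against 8.49 in pool 1 but 8.72 against 8.42 and 9.02 in pool 2, so its estimate of -1.13 ± 0.46 rests on the pool 1 array.

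The receptor's own transcript, Ahr, was at 6.04 log2 against 6.08 in pool 1 and at 5.02 against 5.52 and 5.52 in pool 2, a difference of -0.30 ± 0.24. Of 29 measured cytoskeletal genes, 3 were higher and 0 lower at an unadjusted p below 0.05 (Myl9, Acta1 and Tmsb4x), against 33 higher and 92 lower of all 3034, and the list median was 0.05. Of the 3, Acta1 was high on the pool 2 array alone, and Tmsb4x moved by -0.04 in pool 1 and 0.46 in pool 2. Fatty acid synthesis genes, 9 measured, had the lowest list median, -0.36, with -0.52 in pool 1 and -0.13 in pool 2. Elovl5, a fatty acid elongase, was the 1 member at an unadjusted p below 0.05, at 7.65 against 9.06 in pool 1 and at 9.64 against 9.82 and 9.71 in pool 2. Cholesterol synthesis genes, 11 measured, had a median of -0.24 with 10 below 0, and mitochondrial respiration genes, 40 measured, -0.16 with 29 below 0. Over all genes 1912 of 3034 were below 0. Igf1, the hepatic growth factor, read 9.20 against 8.41 in pool 1 and 7.91 against 6.65 and 7.16 in pool 2, a difference of 0.87 ± 0.30 (unadjusted p = 0.0104). Its other 4 probe sets had estimates from -0.01 to 0.59.

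**Figure D5:**
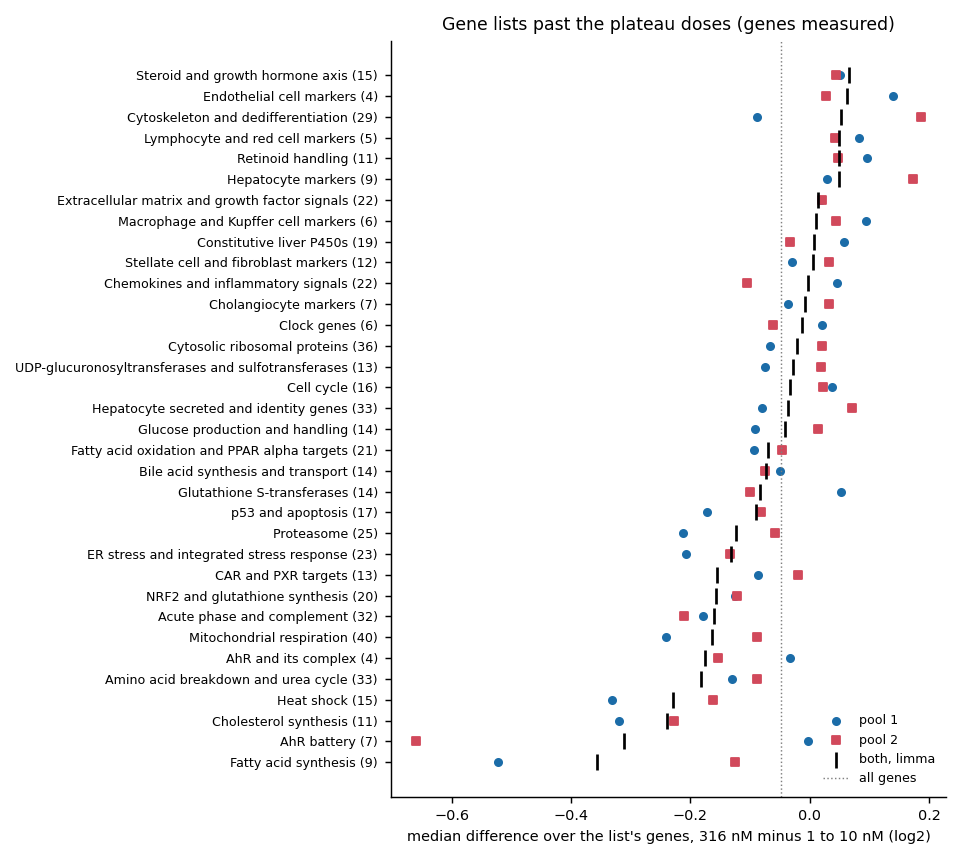
Median difference between 316 nM and 1 to 10 nM (log2) over the measured genes of each list, for pool 1 (circles), pool 2 (squares) and both pools in the limma fit (black bars), with the number of genes in brackets and the median of all genes as a dotted line at -0.05. Fatty acid synthesis (-0.36) and the AhR battery (-0.31) lie lowest, the first through pool 1 and the second through pool 2.

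PCB 126 gave a second look at doses past those that induce the battery. Between 1 to 10 nM and 1000 to 10000 nM of PCB 126, 0 of 5197 probe sets (0%) passed the test, with 172 at an unadjusted p below 0.05. Cyp1a1 was at 12.41 and 12.43 log2 at the 2 micromolar doses in pool 1 and at 12.30 and 12.05 in pool 2, against 11.79 to 12.63 on the 3 arrays at the lower doses. The TCDD risers had a median difference of 0.17 and the fallers of -0.14. The doses of the chemicals differ, so the values are only set beside those of TCDD.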

How the data were processed

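The deposited log2 expression values of 26 Affymetrix rat arrays were used, which the authors made with GCRMA 2.8.0, per the submitters' processing notes; these list RMA as well, with a role not given in the sources used here. GCRMA draws dim values together, so differences near the low end are compressed. Groups and pools came from the sample titles. Of 8740 probe sets that are not controls, 5197 were kept whose second-highest value exceeded 3.71 log2, the median of all values. A gene, 3034 in all, was represented by its kept probe set with 1 symbol and the highest mean. limma 3.58.1 in R 4.3.3 (lmFit, contrasts.fit, eBayes with trend and robust) fitted 15 dose groups and the pool, with 10 residual degrees of freedom. The main contrast weighed the 3 lower-dose arrays equally, and p-values were adjusted by Benjamini-Hochberg over 5197 probe sets. The method was tested on simulated data. Pool is a block because the same animals' cells were used; arrays of 1 pool deviated together (r of 0.461 to 0.892).

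Named genes are the AhR battery, the 15 early responders with the largest rise and the 15 with the largest fall, up to 3 members of each gene list by p, and, since none was called, the 5 smallest p-values in each direction with the same sign in both pools. The members and lists were chosen with earlier results of these data known. Alternatives changed the filter, the centring, the block, the arrays in the fit and the reference dose, left out each array of the contrast, or averaged a gene's probe sets. Scanner files were not used here.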

Additional observations from a re-analysis of the deposited data

Results flagged for a closer look

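The gap between the pools, pool 2 minus pool 1, was compared at 316 nM with that over the other dose groups. By limma 220 probe sets had an unadjusted p below 0.05, and 1 of 5197 passed (adjusted p = 0.0269). That probe set, rc_AI639500_i_at, has no single gene symbol. It read 3.33 log2 at 10 nM and 4.85 at 316 nM in pool 1, against 3.01 and 3.02 in pool 2. Its gap at 316 nM differed from that over the other dose groups by -1.35 ± 0.19 in the fit. The test rests on 1 array per pool at 316 nM.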

How the results depend on the processing

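The count of 0 probe sets past the test held under every alternative that kept all 5 arrays of the contrast. Leaving out 1 array at a time gave 0 to 3: omitting the pool 2 array at 316 nM gave 3, none with a single gene symbol, and omitting the pool 1 array at 10 nM gave 1, a probe set of Scd2 that was not its representative (-1.32 ± 0.12, adjusted p = 0.000187 by limma). Without the replicate block for pool, 31 early responders were called in place of 166 and the median of the fallers was 0.32 log2 in place of 0.04. With the TCDD and vehicle arrays alone in the fit 65 were called. Leaving out 1 array gave 113 to 532 early responders, and the cause of these shifts was not tested. No named gene passed an adjusted p of 0.05 under any alternative, and the 33 with an unadjusted p below 0.05 kept their sign in every alternative that measured them (Fgfr4 was left out by the filter on the mean). The alternatives reuse the arrays by which these 33 genes were picked, so a kept sign is no separate evidence. Acta1 and Tmsb4x kept theirs although the 2 pools moved in opposite directions. The A2m estimate was 0.63 log2 with its probe sets averaged. Intensity over background was not examined, and dim probe sets such as that of Itga7 lie where GCRMA compresses differences.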
